A study of Mus musculus with 12 samples.

Results

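The 10 genes described here encode proteins that coat, enlarge or form lipid droplets. The genes were followed in white fat and in cultured adipocytes of Xap5 conditional knockout and wild-type mice. They were taken from the count tables by symbol: Plin1, Plin2, Plin3, Plin4, Plin5, Cidea, Cidec, Fitm2, Bscl2 and Hilpda. Each was listed once among the 26639 features of the tissue table and once among the 22851 of the culture table, and all 10 passed the filter on low counts in every comparison. Xap5, a nuclear protein, is the product of the mouse gene Fam50a. The conditional knockout (cKO) mice were Adiponectin-cKO animals, in which the gene is deleted in mature adipocytes, so the other cells of the tissue were not the target. White adipose tissue (WAT) came from cKO and wild-type (WT) mice at postnatal day 42. Cultured adipocytes of knockout (KO) and WT genotype were grown from precursors of the white fat of cKO and WT pups (P0 to P3) and carry the label of day 8, counted from induction with insulin, dexamethasone and IBMX. Adiponectin is itself switched on in the course of such differentiation. Each of the 4 groups held 3 libraries. Whether each was a separate animal or culture is not labelled. The p-values therefore cover the spread among the libraries at hand, which may be technical.

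A lipid droplet stores triglyceride and cholesterol ester under a single layer of phospholipid and protein. It buds from the endoplasmic reticulum (ER), where seipin, the product of Bscl2, and the ER protein Fitm2 act. Perilipins then coat its surface and govern the access of lipases, while CIDE proteins pass lipid between droplets at their contact sites, which lets the single large droplet of a white adipocyte grow. Hilpda encodes a small protein, induced by low oxygen and by fatty acids, that inhibits the lipase ATGL.

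The bases before the start sites of 4 members are shown, since Plin1 and Plin5 were lower in cKO WAT while Plin2 and Hilpda did not pass the test there. They are RefSeq sequences of GRCm38.p6, 250 bases each, written 5′ to 3′ in the direction of transcription and ending at the base before the start. The windows are chr7:79732777-79733026 (minus strand) for Plin1, chr17:56117549-56117798 (minus strand) for 1 of the starts of Plin5, chr4:86670060-86670309 (minus strand) for Plin2 and chr6:29272376-29272625 (plus strand) for 1 of the starts of Hilpda. Capitals mark matches, on either strand, to 4 motifs. They included AGGTCA, a single unit of the paired sites of nuclear receptors such as PPARγ, and TTGCNNAA, a site of C/EBP factors. The others were ACGTG, the core bound by hypoxia-inducible factors, and GGGCGG, the GC box of Sp1.
Plin1: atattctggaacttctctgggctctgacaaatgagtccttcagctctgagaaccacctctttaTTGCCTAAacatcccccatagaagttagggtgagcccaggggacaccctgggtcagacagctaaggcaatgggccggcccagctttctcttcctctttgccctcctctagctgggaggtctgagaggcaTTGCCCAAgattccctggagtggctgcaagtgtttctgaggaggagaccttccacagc
Plin5: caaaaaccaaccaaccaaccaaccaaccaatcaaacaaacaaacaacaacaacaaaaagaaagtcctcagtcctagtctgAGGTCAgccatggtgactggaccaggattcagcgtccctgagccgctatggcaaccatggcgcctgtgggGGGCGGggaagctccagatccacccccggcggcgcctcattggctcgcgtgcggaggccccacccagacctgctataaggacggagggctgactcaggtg
Plin2: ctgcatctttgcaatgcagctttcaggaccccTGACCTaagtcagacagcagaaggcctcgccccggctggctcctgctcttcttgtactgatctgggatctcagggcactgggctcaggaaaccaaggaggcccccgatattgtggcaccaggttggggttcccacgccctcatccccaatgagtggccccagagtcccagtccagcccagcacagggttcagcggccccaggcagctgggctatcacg
Hilpda: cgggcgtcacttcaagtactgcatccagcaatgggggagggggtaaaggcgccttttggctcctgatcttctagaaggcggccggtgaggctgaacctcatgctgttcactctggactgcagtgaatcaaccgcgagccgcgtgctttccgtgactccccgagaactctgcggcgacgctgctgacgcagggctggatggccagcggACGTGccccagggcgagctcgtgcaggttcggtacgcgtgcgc
The Plin1 stretch held 2 C/EBP matches, whose first bases lie 187 and 58 bases before the start, and none of the other 3 motifs. In the Plin5 stretch AGGTCA began 170 bases and GGGCGG 100 bases before the start. The Plin2 stretch held AGGTCA on the opposite strand, 218 bases before the start. Its ACGTG matches on the 2 strands overlap each other and run over the start, so they are not marked in the letters shown. In the Hilpda stretch ACGTG began 43 bases before the start. The 250 bases before the other Hilpda start, not shown, held GGGCGG 154 bases before it and no ACGTG. Those before the other Plin5 start held GGGCGG 239 and 53 bases before it and no AGGTCA.

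Such matches are common. Over 32851 mouse windows that also include the first 50 bases after the start, AGGTCA was found in 16.3%, TTGCNNAA in 10.8%, ACGTG in 19.6% and GGGCGG in 35.7%. Windows were matched for 9 of the 10 members, 14 windows in all. AGGTCA was found for Bscl2, Plin2 and Plin5, TTGCNNAA for Cidec and Plin1, ACGTG for Hilpda and Plin2, and GGGCGG for Bscl2, Fitm2, Hilpda, Plin2, Plin3 and Plin5. The TATA box TATAAA, present in 13.6% of all windows, matched in no member window. Nor did DR1, in which AGGTCA follows AGGTCA after 1 base, and which was present in 0.0396% of all windows. A match describes these letters and is not a measure of binding.

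The libraries held 33132906 to 33997204 counts in cKO WAT, 28844370 to 30704234 in WT WAT, 10863158 to 21773610 in KO cultures and 11601138 to 12401278 in WT cultures. Levels are given as CPM, the count of a gene relative to the total of its library, scaled by TMM, which sets the libraries on the level of most of their genes, separately for tissue and culture. The targeted gene Fam50a stood at 23.3, 16.8 and 28.9 CPM in cKO WAT, against 35.3, 32.5 and 36.5 CPM in WT WAT, a log2 fold change of -0.60 ± 0.20 (SE; adjusted p = 0.0395, edgeR's quasi-likelihood test with Benjamini-Hochberg adjustment, as for every gene below). With scaling by library size alone this value was 0.09 and the call was lost. In KO cultures Fam50a stood at 46.2, 42.9 and 41.1 CPM, against 57.9, 52.0 and 45.2 CPM in WT cultures, and did not pass the test (log2 fold change -0.26, adjusted p = 0.134). Counts over a whole gene include any part outside the deletion, which the labels do not describe. They also include any Fam50a RNA from cells that were not the target, so they are a weak check of the labels.

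By summed adipocyte, brown fat, macrophage and preadipocyte markers, replicate 2 of the cKO tissues stood nearest to WT. By endothelial markers replicate 1 did, with sums of 746, 650 and 493 CPM in cKO WAT against 946 to 1355 CPM in WT WAT. The 10 adipocyte markers, Adipoq among them, summed to 15013, 26092 and 11645 CPM in cKO WAT, against 57988 to 59975 CPM in WT WAT, and 6 of the 10 fell. Cfd weighed most in the WT sum, at 28588, 29160 and 30413 CPM, against 664, 1577 and 473 CPM in cKO WAT. Lpl went the other way without passing in edgeR with TMM on the 6 libraries, at 2648, 3839 and 2870 CPM in cKO WAT, against 2408, 2074 and 2192 CPM in WT WAT. With DESeq2, and in 1 fit over 12 libraries, 1 of the adipocyte markers was called higher. The 14 macrophage markers summed to 6471, 3182 and 6827 CPM in cKO WAT, against 659 to 1003 CPM in WT WAT, and 12 rose. Of 9 preadipocyte markers 6 rose, with sums of 2529 to 4342 CPM in cKO WAT against 1036 to 1191 CPM in WT WAT, and 5 of 6 endothelial markers fell. Of 7 brown fat markers 3 fell and 1 rose, with sums of 90.1 to 390 CPM in cKO WAT against 670 to 1136 CPM in WT WAT. Muscle markers ran from 47.9 to 1248 CPM in cKO WAT and from 32.1 to 1749 CPM in WT WAT, and epithelial markers stood at 640 CPM in cKO replicate 3, against 4.01 and 4.48 CPM in the other cKO tissues. No marker of the lymphocyte, muscle or epithelial lists passed in edgeR with TMM on the 6 libraries or in DESeq2, and at an unadjusted p under 0.05 edgeR gave 0, 0 and 1 of them. Without replicate 1 of the cKO 2 lymphocyte markers fell and 1 epithelial marker rose, without replicate 2 of the cKO 1 epithelial marker rose, without replicate 3 of the cKO 2 epithelial markers fell, and in 1 fit over 12 libraries 2 rose. With library size alone 1 endothelial marker was lower in place of 5, 8 preadipocyte markers were higher in place of 6, 2 brown fat markers were lower in place of 3, and 1 adipocyte and 1 epithelial marker were higher, while the 12 macrophage calls were the same in number. In bulk tissue, fewer cells of a type and less RNA per cell cannot be told apart. The part of these shifts in the results on the droplet genes was not tested.

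**Figure D1:**
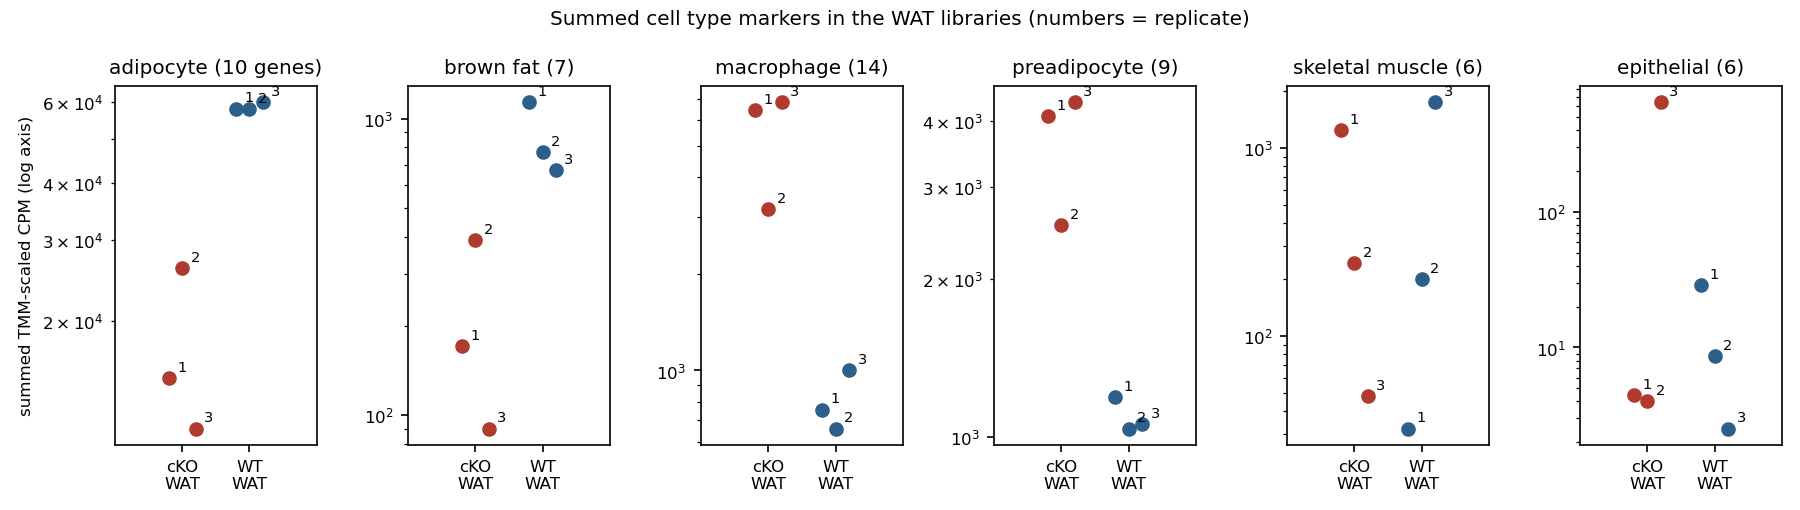
Summed TMM-scaled CPM of 6 marker lists in each cKO and WT WAT library, on log axes, with the replicate number beside each point. Adipocyte and brown fat markers were lower and macrophage and preadipocyte markers higher in each cKO library than in any WT library, with replicate 2 of the cKO tissues nearest to WT in these 4 lists, while muscle and epithelial markers varied within groups.

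In cKO WAT at day 42, 7 of the 10 droplet genes fell: Plin1, Plin4, Plin5, Cidea, Cidec, Fitm2 and Bscl2. They stood at 0.132 times (Cidea) to 0.461 times (Fitm2) their WT level. Plin2, Plin3 and Hilpda did not pass the test. Across all 16293 genes tested 24.2% fell and 28.2% rose, 52.4% in either direction, so calls were frequent in this comparison. The median log2 fold change was -1.44 over the 10 members and 0.12 over all genes tested. The same 7 members were those whose cKO and WT libraries did not overlap, as in 64.4% of all genes tested.

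Plin1 encodes the chief coat protein of white adipocyte droplets, which holds back lipolysis at rest. Its level was 452, 888 and 406 CPM in cKO WAT, against 1725, 2021 and 1728 CPM in WT WAT. Every cKO library lay below every WT library, and replicate 2 was the highest of the cKO libraries. The log2 fold change was -1.65 ± 0.32 (SE; adjusted p = 0.00487). Plin1 lies on chromosome 7 of GRCm38 (79721164 to 79732904, minus strand), and RefSeq lists no gene that overlaps it.

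Plin4 and Plin5 are neighbours on the minus strand of chromosome 17 (56100587 to 56109948 and 56111597 to 56117606). Plin4, which coats small, newly formed droplets of adipocytes, was at 601, 1313 and 456 CPM in cKO WAT, against 1826, 2373 and 1865 CPM in WT WAT. Plin5, a perilipin of oxidative tissues that ties droplets to mitochondria, was at 15.4, 30.4 and 12.3 CPM in cKO WAT, against 89.4, 83.2 and 61.5 CPM in WT WAT. Both were lower in each cKO library than in any WT library, again with replicate 2 the highest of the cKO tissues. The log2 fold change was -1.36 ± 0.39 for Plin4 (SE; adjusted p = 0.0238) and -2.01 ± 0.35 for Plin5 (SE; adjusted p = 0.00323). The call of Plin4 was lost without replicate 1 of the cKO or without any 1 of the WT libraries (adjusted p from 0.0515 to 0.0841). Plin4 overlaps Hdgfl2, and the strand setting of the counting is not given in the sources used here.

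Plin2, the perilipin found in most cell types, foam cells and immature adipocytes included, stood at 1898, 1897 and 1635 CPM in cKO WAT, against 1844, 2014 and 2159 CPM in WT WAT. The groups overlapped, and the log2 fold change was -0.15 ± 0.17 (SE; adjusted p = 0.499). Plin3, a broadly expressed perilipin that moves between cytosol and young droplets, stood at 104, 89.9 and 103 CPM in cKO WAT, against 123, 123 and 103 CPM in WT WAT. Here too the groups overlapped (log2 fold change -0.24 ± 0.13, adjusted p = 0.161). The direction of both flips with the scaling: with library size alone the log2 fold change was 0.53 for Plin2 (adjusted p = 0.0266) and 0.45 for Plin3 (adjusted p = 0.0221). Plin2 lies on chromosome 4 (86626910 to 86670217, minus strand), where it overlaps the predicted gene Gm12551, and Plin3 on chromosome 17 (56278962 to 56290511, minus strand).

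The make-up of the perilipin transcripts does not depend on the scaling, since it is taken within each library. Per kilobase of the longest transcript, Plin2 made up 76.9%, 63.3% and 77.1% of the 5 perilipins in cKO WAT, against 49.2%, 47.0% and 53.4% in WT WAT. Plin1 made up 12.3%, 19.9% and 12.8% in cKO WAT, against 30.8%, 31.6% and 28.7% in WT WAT. So Plin2 led in all 6 tissues on this scale, though not in counts undivided by length, where Plin4 and Plin1 stood above it in WT replicate 2, and it took a larger share in each cKO tissue than in any WT tissue. The share of Plin4 was 9.80% ± 3.98 in cKO WAT and 16.4% ± 1.55 in WT WAT, that of Plin5 was 0.703% ± 0.228 and 1.85% ± 0.410, and that of Plin3 was 2.08% ± 0.486 and 1.50% ± 0.188, in the same order of groups (SD, n = 3 each). As a log2 ratio of counts, Plin2 over Plin1 was 2.07, 1.09 and 2.01 in cKO WAT, against 0.10, 0.00 and 0.32 in WT WAT. The difference of 1.59 is a 3.00-fold higher ratio in cKO WAT (two-sided exact permutation p = 0.10, the smallest that 3 libraries against 3 allow, and 0.114 adjusted over the 8 ratios tested). The ratio of Plin5 to Plin1 was lower by a smaller amount, at -4.87, -4.87 and -5.05 in cKO WAT against -4.27, -4.60 and -4.81 in WT WAT (exact permutation p = 0.10, adjusted 0.114).

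**Figure D2:**
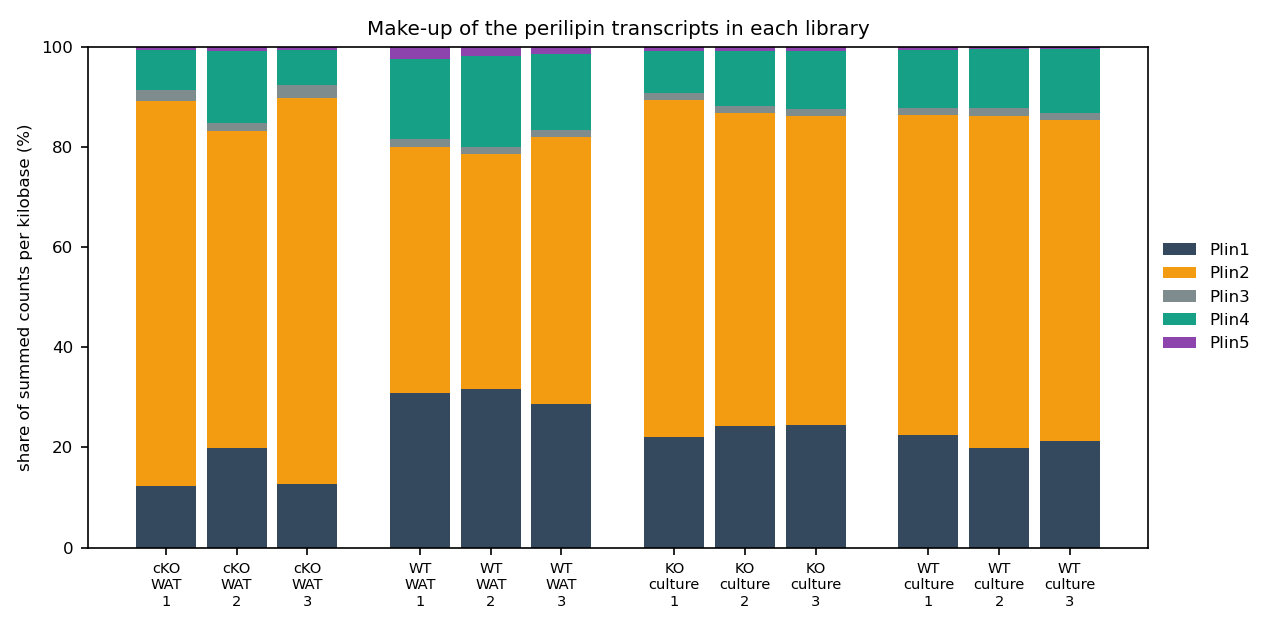
Share of each perilipin in the summed counts per kilobase of the 5 perilipins, as stacked bars for the 12 libraries. Plin2 took 63.3% to 77.1% in cKO WAT, against 47.0% to 53.4% in WT WAT, while in culture the 2 genotypes overlapped, at 61.8% to 67.3% in KO and 64.0% to 66.5% in WT.

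Both CIDE genes fell in cKO WAT. Cidec, the CIDE protein of white adipocytes, stood at 840, 1913 and 670 CPM in cKO WAT, against 3032, 3226 and 3548 CPM in WT WAT. Cidea, best known from brown fat, stood at 110, 292 and 43.0 CPM in cKO WAT, against 1415, 1149 and 809 CPM in WT WAT. No cKO library reached a WT library for either gene, and Cidea had the lowest fold of the 10 members. The log2 fold change was -1.52 ± 0.40 for Cidec (SE; adjusted p = 0.0160) and -2.92 ± 0.66 for Cidea (SE; adjusted p = 0.00865). Within libraries, the log2 ratio of Cidea to Cidec was -2.94, -2.71 and -3.96 in cKO WAT against -1.10, -1.49 and -2.13 in WT WAT, without overlap (exact permutation p = 0.10, adjusted 0.114). Ucp1, the brown fat uncoupler, stood at 8.95, 48.5 and 6.14 CPM in cKO WAT, against 140, 58.0 and 81.0 CPM in WT WAT. Dio2, another of the 7 brown fat markers, was low but higher in each cKO library, at 3.48, 6.78 and 1.65 CPM against 0.218, 0.835 and 0.537 CPM in WT WAT. Elovl3 overlapped between the groups, and of the 7 markers 3 fell and 1 rose. The part of these markers in the Cidea result was not tested. Cidec lies on chromosome 6 (113424634 to 113435760, minus strand) and overlaps the predicted gene Gm52871, and its call was lost without replicate 1 of the cKO (adjusted p = 0.0628) or replicate 2 of the WT (adjusted p = 0.0504).

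The ER genes fell too. Bscl2, on chromosome 19 (8837467 to 8848683, plus strand, overlapping Gng3), stood at 208, 372 and 172 CPM in cKO WAT, against 888, 863 and 904 CPM in WT WAT. Its WT values were the tightest of the set, and each cKO library lay below them (log2 fold change -1.82 ± 0.29, SE; adjusted p = 0.00242). Fitm2, on chromosome 2 (163468703 to 163472629, minus strand, overlapping 2310001K24Rik), stood at 41.5, 85.9 and 36.8 CPM in cKO WAT, against 111, 127 and 119 CPM in WT WAT. Its log2 fold change of -1.12 ± 0.31 (SE; adjusted p = 0.0209) was the smallest among the 7 calls, and the call was lost without replicate 1 of the cKO, replicate 2 of the WT or replicate 3 of the WT (adjusted p from 0.0550 to 0.0715).

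Hilpda, on chromosome 6 (29272488 to 29275449, plus strand), stood at 23.0, 24.2 and 22.2 CPM in cKO WAT, against 10.4, 23.0 and 7.36 CPM in WT WAT. Replicate 2 of the WT lay among the cKO libraries and the other WT libraries below them. The log2 fold change was 0.77 ± 0.39 (SE; adjusted p = 0.132), and it was 1.38 without that WT library (adjusted p = 0.00795). It also passed with scaling by library size alone, at 1.45 (adjusted p = 0.0136), with the trend with length and GC content removed, at 1.25 (adjusted p = 0.0312), with limma voom, at 0.93 (adjusted p = 0.0496), and in 1 fit over all 12 libraries, at 0.81 (adjusted p = 0.0306). Hilpda did not pass with RLE size factors (adjusted p = 0.160), DESeq2 (adjusted p = 0.118), the replicate block (adjusted p = 0.0611), no count filter or numbered copies summed. Nor did it pass with any other library left out (adjusted p from 0.176 to 0.313). Within libraries, the log2 ratio of Hilpda to Plin1 was -4.30, -5.20 and -4.20 in cKO WAT, against -7.38, -6.46 and -7.88 in WT WAT, and did not overlap (exact permutation p = 0.10, adjusted 0.114).

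**Figure D3:**
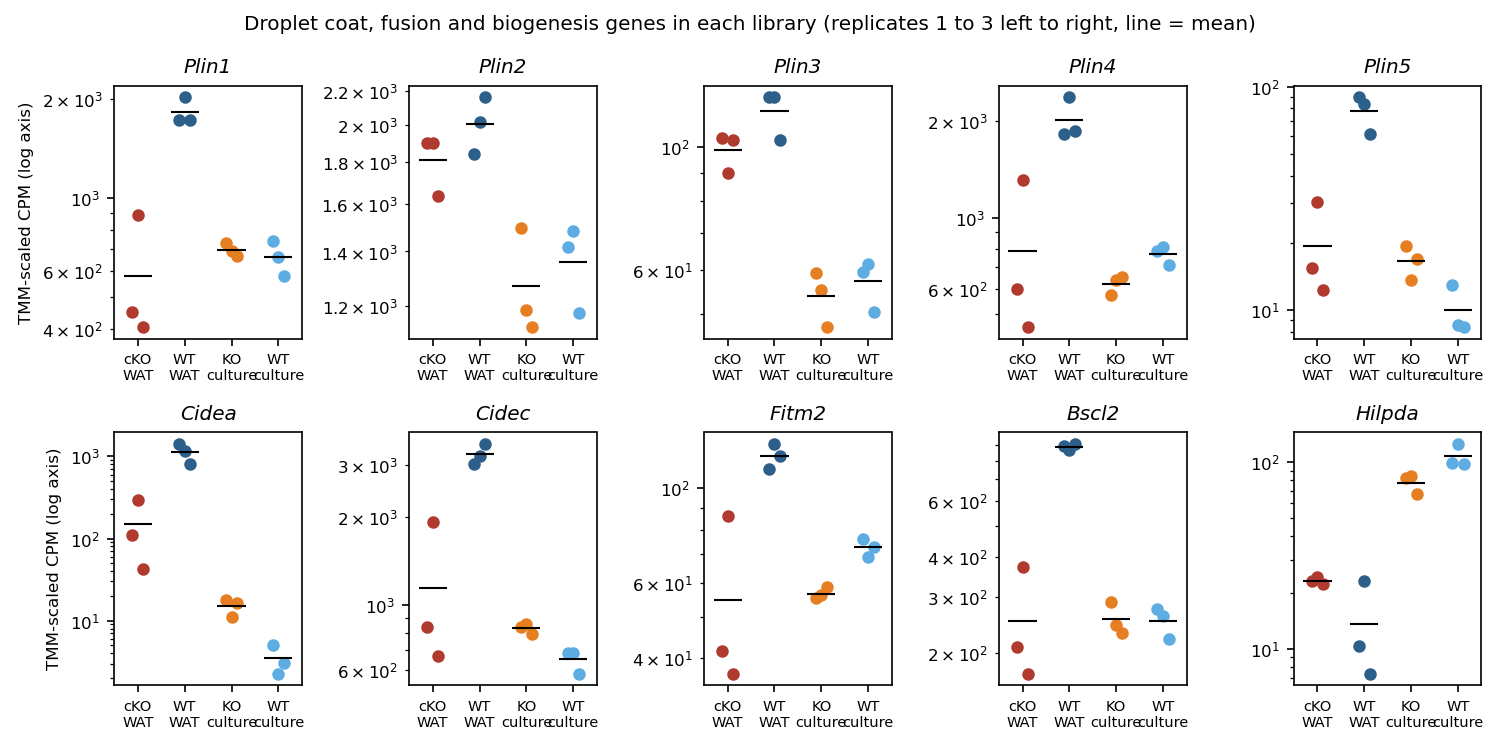
TMM-scaled CPM of the 10 genes on log axes, in the 3 libraries of cKO WAT, WT WAT, KO cultures and WT cultures, with a line at each mean; tissue and culture were scaled separately. The 7 panels of Plin1, Plin4, Plin5, Cidea, Cidec, Fitm2 and Bscl2 show cKO WAT below WT WAT without overlap, and Plin5 and Cidea stand higher in KO than in WT cultures.

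Scaling matters for the tissue, because library size alone moves the median of all genes by 0.68 on the log2 scale, to 0.80. The members' median then was -0.77, with 4 members lower (Plin1, Plin5, Cidea and Bscl2) and 3 higher (Plin2, Plin3 and Hilpda). Plin4, Cidec and Fitm2 kept a negative log2 fold change (-0.69, -0.85 and -0.45) without passing. Leaving out replicate 2 of the cKO, the tissue nearest to WT by adipocyte and macrophage markers, kept the same 7 calls at larger size. Plin1 was then at -2.11, Cidec at -2.14, Cidea at -3.90 and Fitm2 at -1.62. Without replicate 1 of the cKO the members called were 4, again Plin1, Plin5, Cidea and Bscl2.

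**Figure D4:**
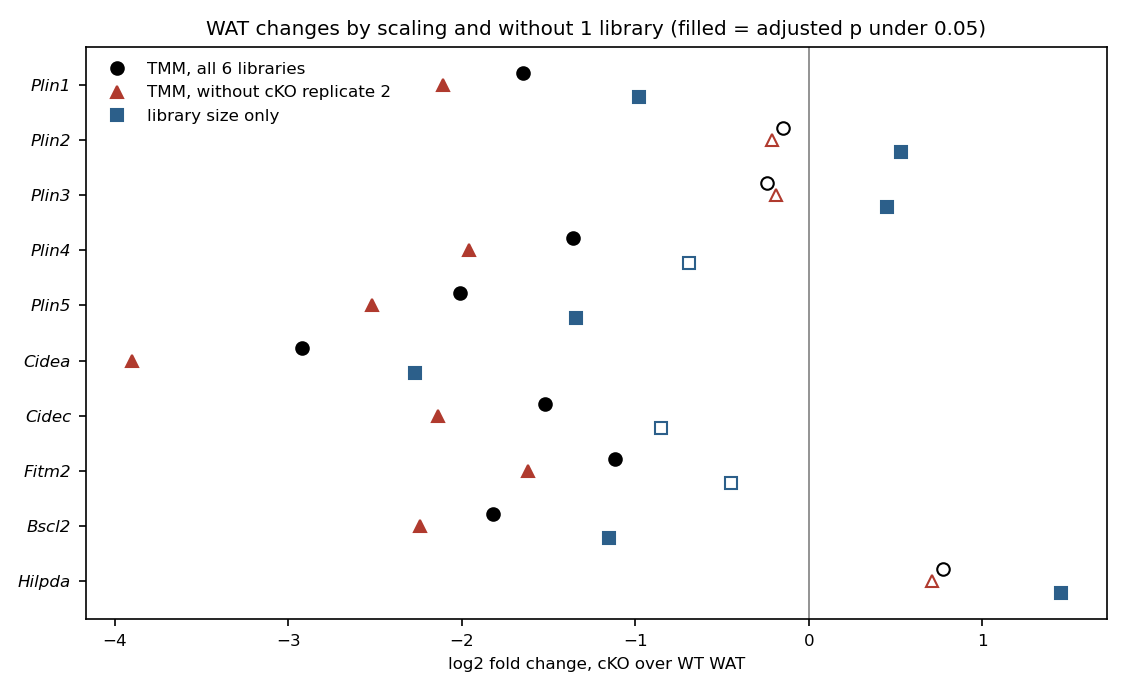
Log2 fold change of each gene, cKO over WT WAT, with TMM on all 6 libraries, with TMM but without replicate 2 of the cKO, and with library size only; filled symbols have an adjusted p under 0.05. Plin2 and Plin3 lie below 0 with TMM and at 0.53 and 0.45 with library size only, while Plin1, Plin5, Cidea and Bscl2 pass below 0 in all 3.

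Levels of different genes were compared per kilobase. In cKO WAT Plin2 led with 959 ± 80.1 CPM per kilobase, then Cidec with 663 ± 392 and Plin1 with 207 ± 94.5, and Plin5 was lowest with 9.76 ± 4.89 (SD, n = 3). In WT WAT Cidec led with 1900 ± 152, then Plin2 with 1062 ± 83.7 and Cidea with 1008 ± 272, and Hilpda was lowest with 13.8 ± 8.42 (SD, n = 3). Between these, in cKO WAT, came Plin4 (137), Cidea (133), Bscl2 (71.8), Plin3 (27.2), Hilpda (23.5) and Fitm2 (13.8 CPM per kilobase). In WT WAT came Plin1 (648), Plin4 (351), Bscl2 (253), Plin5 (39.3), Plin3 (32.0) and Fitm2 (30.0 CPM per kilobase). Among neighbours in this order, the higher gene changed from library to library for Plin2 and Cidec, Plin4 and Cidea, and Cidea and Bscl2 in cKO WAT, and for Plin2 and Cidea and Plin3 and Fitm2 in WT WAT. The ranges also overlapped for Plin1 and Plin4 and for Fitm2 and Plin5 in cKO WAT and for Plin5 and Plin3 in WT WAT, but within each library the first of each pair was higher. No test of the order was made.

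In culture at day 8, 6 of the 10 genes passed the test, 3 in each direction: Plin5, Cidea and Cidec rose and Plin4, Fitm2 and Hilpda fell in KO cultures. Changes other than that of Cidea were small, from -0.46 to 0.73 on the log2 scale. Of 12587 genes tested 19.5% passed, 8.94% higher and 10.6% lower, and the median log2 fold change was -0.04 over the members and -0.02 over all genes tested. Libraries of KO and WT did not overlap for these 6 members, as for 36.8% of all genes tested.

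Cidea stood at 17.7, 11.0 and 16.2 CPM in KO cultures, against 5.07, 2.27 and 3.09 CPM in WT cultures. All KO libraries lay above all WT libraries, though the level was low, with 27 and 39 counts in WT replicates 2 and 3. The log2 fold change was 2.09 ± 0.24 (SE; adjusted p = 2.69e-06). Plin5 stood at 19.3, 13.7 and 17.0 CPM in KO cultures, against 13.0, 8.57 and 8.40 CPM in WT cultures, without overlap (log2 fold change 0.73 ± 0.18, SE; adjusted p = 0.00773). Cidec stood at 839, 860 and 798 CPM in KO cultures, against 687, 686 and 583 CPM in WT cultures (log2 fold change 0.35 ± 0.11, SE; adjusted p = 0.0293). Each KO library exceeded each WT library for these 3 genes. Of the brown fat markers 3 of 6 tested rose in KO cultures, with sums of 117 to 135 CPM in KO against 88.0 to 121 CPM in WT, but Ucp1 stood at 0.836 to 1.70 CPM in KO and 0.672 to 1.86 CPM in WT. The ratio of Cidea to Cidec was 3.49-fold higher in KO cultures, and that of Plin5 to Plin1 1.60-fold higher (exact permutation p = 0.10 each, adjusted 0.114). The log2 ratio of Plin2 to Plin1 overlapped between genotypes, at 0.86 ± 0.15 in KO cultures and 1.04 ± 0.12 in WT cultures (SD, n = 3 each; exact permutation p = 0.30), and that of Hilpda to Plin1 was -3.17 ± 0.14 in KO cultures and -2.63 ± 0.26 in WT cultures (SD, n = 3 each; exact permutation p = 0.10, adjusted 0.114).

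Hilpda stood at 81.8, 84.1 and 67.2 CPM in KO cultures, against 98.5, 125 and 98.0 CPM in WT cultures (log2 fold change -0.46 ± 0.12, SE; adjusted p = 0.0103). Fitm2 stood at 55.2, 56.1 and 58.6 CPM in KO cultures, against 76.0, 69.2 and 72.8 CPM in WT cultures (log2 fold change -0.36 ± 0.11, SE; adjusted p = 0.0241). Plin4 stood at 572, 638 and 652 CPM in KO cultures, against 790, 810 and 712 CPM in WT cultures (log2 fold change -0.31 ± 0.11, SE; adjusted p = 0.0488). In these 3 genes every KO library lay below every WT library. The call of Plin4 was lost in 9 of 15 alternatives, at -0.02 with the trend with length and GC content removed. Those of Fitm2 and Cidec were lost in 5 each, that of Hilpda in 3, that of Plin5 in 2 and that of Cidea in 1. Without replicate 2 of the WT cultures Cidea alone of the 10 members was called, and in 1 fit over all 12 libraries, whose spread is shared with the tissue, the members called were 0.

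Plin1, Plin2, Plin3 and Bscl2 did not pass in culture, though Plin1 did with the trend with length and GC content removed (0.20, adjusted p = 0.0483). Plin1 stood at 731, 689 and 666 CPM in KO cultures, against 740, 661 and 582 CPM in WT cultures (log2 fold change 0.07 ± 0.11, adjusted p = 0.692). Bscl2 stood at 289, 244 and 231 CPM in KO cultures, against 275, 260 and 221 CPM in WT cultures (log2 fold change 0.01 ± 0.12, adjusted p = 0.947). Plin2 had a log2 fold change of -0.10 ± 0.13 and Plin3 one of -0.09 ± 0.12, with overlapping groups. The sign for Bscl2 flips with library size alone (-0.04). Adipocyte markers summed to 31338 to 35983 CPM in KO cultures, against 23953 to 25790 CPM in WT cultures, and 3 of 9 tested rose while 1 fell. Macrophage markers were present in the cultures and summed to 3632 to 4190 CPM in KO, against 5207 to 5850 CPM in WT, with 8 of 14 lower. Of 8 preadipocyte markers tested 1 rose and 2 fell, and 2 of 6 endothelial markers fell. Their part in the culture results was not tested. Per kilobase, Plin2 led in both genotypes, with 673 ± 104 CPM per kilobase in KO and 720 ± 84.9 in WT cultures, then Cidec with 484 ± 18.4 and 379 ± 34.9 and Plin1 with 247 ± 11.7 and 235 ± 28.0 (SD, n = 3 each), and the libraries of these neighbours did not overlap. The lowest were Plin5 in KO cultures, with 8.39 ± 1.43, and Cidea in WT cultures, with 3.12 ± 1.29 CPM per kilobase.

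**Figure D5:**
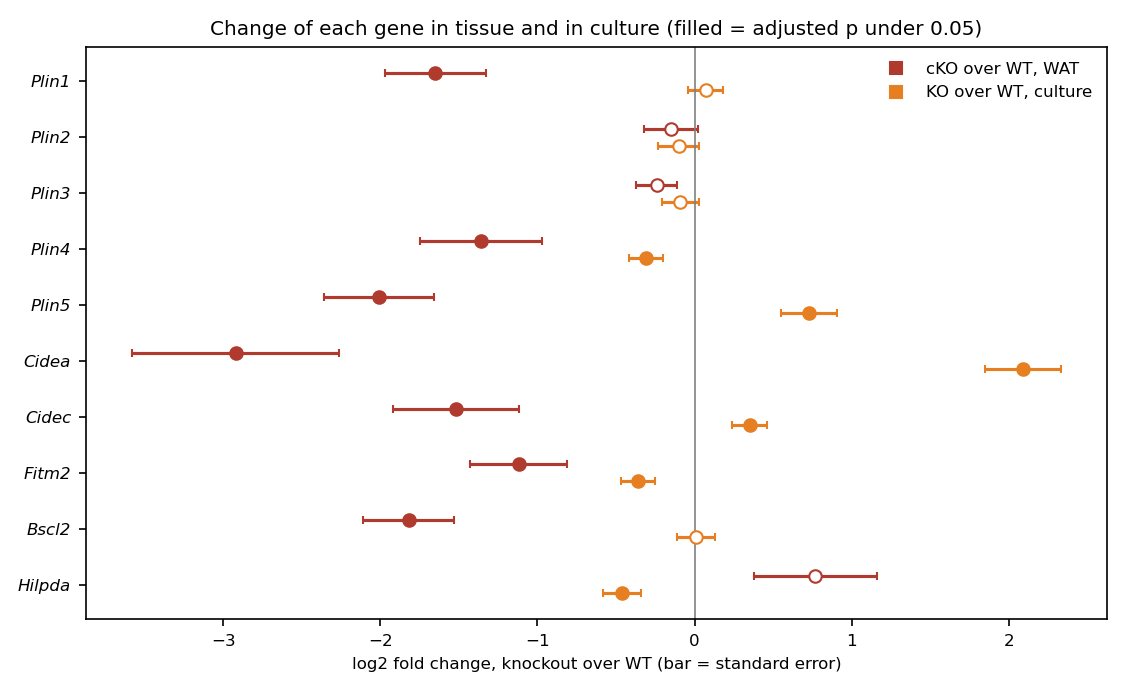
Log2 fold change of each gene with its standard error, cKO over WT in WAT and KO over WT in culture; filled points have an adjusted p under 0.05. Plin5, Cidea and Cidec lie below 0 in WAT and above 0 in culture, and Plin4 and Fitm2 lie below 0 in both.

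The effect in tissue and that in culture were compared in a fit over all 12 libraries, whose interaction term is the log2 fold change in WAT minus that in culture. It passed for 6 of the 10 members, 5 of them negative, where 48.8% of 14463 genes passed and 21.1% were negative. The difference was -4.99 ± 0.79 for Cidea (SE; adjusted p = 2.68e-04) and -2.71 ± 0.43 for Plin5 (SE; adjusted p = 2.65e-04), the genes that fell in tissue and rose in culture together with Cidec (-1.84 ± 0.41, SE; adjusted p = 0.00273). For Bscl2 it was -1.80 (adjusted p = 5.73e-04) and for Plin1 -1.69 (adjusted p = 0.00131). Hilpda was the positive one, at 1.27 ± 0.42 (SE; adjusted p = 0.0230). Its call was lost without replicate 1 of the WT tissues, replicate 2 of the WT cultures or replicate 3 of the KO cultures (adjusted p from 0.0559 to 0.0623). Plin4 and Fitm2 missed the threshold, at -1.01 (adjusted p = 0.0575) and -0.73 (adjusted p = 0.0895), and passed without replicate 2 of the cKO tissues, at -1.57 and -1.19. Plin4 also passed with DESeq2 (adjusted p = 0.0217), limma voom (adjusted p = 0.0296) and the replicate number as a block (adjusted p = 0.0131), and Fitm2 with that block (adjusted p = 0.0330). Plin2 and Plin3 had differences of -0.02 and -0.11, which with library size alone were 0.63 and 0.54. Tissue and culture differ in table, age and cell make-up, which cannot be told apart from the setting.

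Other genes of the droplet were read from 4 lists. Of 9 genes of droplet lipolysis, 8 fell in cKO WAT, with a median log2 fold change of -1.95, where 24.2% of all genes tested fell. They include Pnpla3, a droplet lipase family member (-2.90 ± 0.37, SE; adjusted p = 0.00114), G0s2, the inhibitor of ATGL (-1.72 ± 0.18, SE; adjusted p = 7.06e-04), and Ces1f, a carboxylesterase (-3.02 ± 0.41, SE; adjusted p = 0.00139). Pnpla3 stood at 143, 291 and 112 CPM in cKO WAT, against 1308, 1473 and 1308 CPM in WT WAT. So 8 of the 9 genes of this list, the inhibitor G0s2 included, fell beside the coat gene Plin1 and the CIDE genes Cidea and Cidec. Hilpda, which like G0s2 encodes an inhibitor of ATGL, did not pass the test.

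Of 16 genes that supply triglyceride and sterol ester 7 fell and 3 rose in cKO WAT, with a median of -0.53, where 24.2% of all genes fell and 28.2% rose. Agpat2, which makes phosphatidic acid, stood at 335, 615 and 289 CPM in cKO WAT, against 2878, 3228 and 3042 CPM in WT WAT (log2 fold change -2.88, adjusted p = 8.07e-04). Mogat1, a monoacylglycerol acyltransferase, stood at 2.62, 3.44 and 1.45 CPM in cKO WAT, against 50.2, 49.2 and 53.2 CPM in WT WAT (log2 fold change -4.34, adjusted p = 4.25e-04). Soat1, which makes cholesterol ester and is abundant in macrophages, went the other way, at 96.9, 45.6 and 96.1 CPM in cKO WAT against 4.01, 4.38 and 5.50 CPM in WT WAT (log2 fold change 4.10, adjusted p = 4.86e-04). Its lowest cKO value was in replicate 2, as for the macrophage markers, whose part in the Soat1 result was not tested.

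Of 27 tested of 28 other ER and surface genes 9 fell and 5 rose in cKO WAT (median -0.18), a share near the 52.4% of all genes called in this comparison. Nsdhl and Sqle, enzymes of sterol synthesis that can sit on droplets, had log2 fold changes of -2.29 (adjusted p = 8.25e-04) and -1.91 (adjusted p = 7.30e-04), and Mettl7a1, a droplet-associated methyltransferase-like protein, one of -2.91 (adjusted p = 8.94e-04). Of 16 regulators 10 fell and 1 rose (median -1.03), where 24.2% of all genes fell and 28.2% rose. Rxra, the partner of PPARγ, had a log2 fold change of -1.43 (adjusted p = 6.61e-04) and Esrra, a regulator of mitochondrial genes, one of -1.03 (adjusted p = 9.50e-04). Hif1a, which encodes a subunit of hypoxia-inducible factor, rose to 52.9, 46.5 and 49.3 CPM in cKO WAT, against 21.5, 13.1 and 16.3 CPM in WT WAT (log2 fold change 1.55, adjusted p = 0.00104). With library size alone the counts in WAT were 7 lower for lipolysis, 6 lower and 7 higher for triglyceride supply, 3 lower and 13 higher for ER and surface, and 7 lower and 3 higher for regulators.

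In culture the median log2 fold changes of the 4 lists ran from -0.03 to 0.16. Across all genes tested there, 8.94% rose and 10.6% fell. Of the lipolysis genes 3 rose in KO cultures (median 0.16): Ces1d, a droplet carboxylesterase, at 360, 323 and 329 CPM in KO against 145, 145 and 143 CPM in WT (log2 fold change 1.22, adjusted p = 7.98e-08), Ces1f (0.42, adjusted p = 0.0239) and G0s2 (0.38, adjusted p = 0.0302). Of the supply genes Gpat3 and Acsl1, which acylate glycerol phosphate and activate fatty acids, rose (0.40 and 0.32, adjusted p = 0.0243 and 0.0360), and Gpd1, which makes glycerol phosphate, fell (-0.40, adjusted p = 0.0107). Of 26 ER and surface genes tested 2 rose and 2 fell. This share and that of the supply genes lay near the 19.5% of all genes called in culture. Rnf213, a large ubiquitin ligase found on droplets, and the lipid carrier Vps13c fell (-0.83 and -0.38, adjusted p = 1.83e-04 and 0.0385), and Mettl7a1 rose (0.41, adjusted p = 0.0132). Of the regulators 2 rose, Pparg, the master regulator of adipocytes (0.52, adjusted p = 0.00317), and Nr1h3, which encodes LXRα (0.47, adjusted p = 0.00647), and 4 fell. Cebpb, an early factor of adipogenesis, was among those that fell, at 96.2, 98.8 and 20.3 CPM in KO against 208, 177 and 182 CPM in WT (log2 fold change -1.40, adjusted p = 0.00198), with KO replicate 3 far below the other KO libraries.

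The genes with the pattern nearest to a member were found by the root-mean-square distance of log2 CPM, centred on WT in each table, over the 12 libraries and 9445 genes. Nearest to Plin1 were Slc1a5, Gys1 and Miga2, at distances of 0.08, 0.09 and 0.10. Of the members, Bscl2 (0.12) and Cidec (0.18) were nearest to Plin1, then Plin4 (0.26), Fitm2 (0.35) and Plin5 (0.42), while Plin2 lay at 0.84, Plin3 at 0.82, Cidea at 1.36 and Hilpda at 1.42. Nearest to Plin2 were Prickle3, Dhps and Faf2 (0.09, 0.10 and 0.10), and Plin3 lay at 0.15. For Hilpda the nearest genes were farther off: Trib1, Bcl6 and Slc8b1, at 0.20, 0.23 and 0.26. A distance of this kind reflects the size of a change as well as its direction. Cidea fell in cKO WAT as Plin1 did, but further (log2 fold change -2.92 against -1.65). In culture the values were 2.09 for Cidea and 0.07 for Plin1. These distances describe the 12 libraries, which share the cell make-up given above.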

How the data were processed

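Per the labels' protocols, TRIzol was used to extract RNA from WAT and from cultured adipocytes, and the MGIEasy mRNA kit to prepare the libraries. What the authors deposited are raw read counts by gene, not normalized, as 1 table of the tissue and 1 of the cultures. FastQC 0.11.2, cutadapt 1.11, HISAT2 2.1.0 and the build GRCm38 appear in the submitters' processing notes. The sources used here do not give the counting tool, its annotation or its strandedness, so reads that 2 overlapping genes share cannot be assigned with certainty. Sample titles gave the groups, and all 12 count columns were used. No pair of libraries within a group was close enough to be a duplicate (chi-square per degree of freedom 4.98 to 215).

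Comparisons were fitted over all genes, each on its 6 libraries, by edgeR 4.0.16 (quasi-likelihood test, R 4.3.3) with TMM scaling and with low genes removed by filterByExpr (minimum count 10). The threshold was a Benjamini-Hochberg adjusted p under 0.05. The biological coefficient of variation was 0.319 for WAT and 0.114 for the cultures. The SE is the size of the log2 fold change divided by the square root of F. The interaction used the 12 libraries and the symbols in both tables. Levels per kilobase used the longest GENCODE M21 transcript. Ratios were tested by exact permutation (scipy 1.17.1). Coordinates and promoter sequences are from RefSeq. The fits were also run on simulated counts in which a small set of genes was changed by known folds. In WAT 52.4% of the genes tested were called, so that run does not test the scaling there.

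Alternatives were RLE size factors, library size only, a fit with no count filter, a replicate block, DESeq2 1.42.0, voom of limma 3.58.1, numbered copies summed, removal of a trend with length and GC content (values at hand for 87% of the WAT genes and 99.2% of the culture genes tested), 1 fit over 12 libraries, and each library left out. The members, lists and tests were chosen with earlier results of these data known. The text names all members, the 3 genes of smallest p per pathway list and comparison, the 3 genes nearest to Plin1, Plin2 and Hilpda with a mean of at least 5 CPM in each table, and Fam50a. Ucp1, Dio2, Elovl3, Adipoq, Cfd and Lpl were named as markers after their values were seen. A planned comparison of protein sequences was not made.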

Additional observations from a re-analysis of the deposited data

Results flagged for a closer look

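By the interaction over 12 libraries (log2 fold change in WAT minus that in culture, edgeR), the effect of the knockout differed between tissue and culture for 6 members. It also did for each of the 3 genes of smallest interaction p in the 4 droplet lists, 12 in all. These 12 were picked by that p, so their passing says nothing about the lists. Of all 14463 genes tested 48.8% passed, and 21.1% were negative. Other genes of these lists passed too, 9 of 9 for lipolysis. The members were Cidea (-4.99), Plin5 (-2.71), Cidec (-1.84), Bscl2 (-1.80), Plin1 (-1.69) and Hilpda (1.27). Of the lipolysis genes, Ces1d had a difference of -4.12 (adjusted p = 2.70e-05), Ces1f one of -3.41 (adjusted p = 5.63e-05) and G0s2 one of -2.07 (adjusted p = 2.42e-05). Each of these 3 rose in KO cultures and fell in cKO WAT, where the log2 fold change of Ces1d was -2.92.

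Of the genes of triglyceride supply, Mogat1 had a difference of -4.21 (adjusted p = 3.96e-05), Agpat2 one of -2.94 (adjusted p = 3.08e-05) and Soat1 one of 4.39 (adjusted p = 3.60e-06). Among ER and surface genes it was -3.29 for Mettl7a1 (adjusted p = 2.36e-05), -1.65 for Sqle (adjusted p = 9.74e-05) and 1.50 for Rnf213 (adjusted p = 5.78e-05). Among regulators it was -2.16 for Srebf1 (adjusted p = 9.44e-05), which encodes a factor of lipid synthesis, -1.73 for Pparg (adjusted p = 8.08e-05) and 1.50 for Hif1a (adjusted p = 2.01e-04). In the tissue, adipocyte markers were lower and macrophage markers higher in cKO, while in culture adipocyte markers summed higher and macrophage markers lower in KO. The part of that cell make-up in these differences was not tested. No group here is large enough (3 libraries) to test single libraries as outliers.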

How the results depend on the processing

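In WAT, Plin1, Plin5, Cidea and Bscl2 passed below 0 in each of the 15 alternatives, and members called ranged from 4 to 7 with 1 library left out. With library size only the log2 fold change reversed for Plin2 (0.53), Plin3 (0.45) and Fam50a (0.09) in WAT, for Bscl2 (-0.04) in culture, and for Plin2 (0.63), Plin3 (0.54) and Fam50a (0.35) in the interaction; this scaling moves the median of all genes. With the length and GC trend removed Plin2 was 0.22 in WAT (adjusted p = 0.311) and Cidec missed the threshold (adjusted p = 0.0620), while in culture Plin1 passed at 0.20 (adjusted p = 0.0483) and Plin4 was -0.02. With 1 library left out, values that changed sign in culture were Plin1 (0.00 to 0.17), Plin3 (-0.17 to 0.00) and Bscl2 (-0.08 to 0.09), and in the interaction Plin2 (-0.10 to 0.11), none of which passed.

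In culture, 1 fit over 12 libraries called 146 genes and 0 members, against 2459 and 6, because it shares the wider spread of the tissue (0.227 in the interaction fit). The separate fit of the 6 culture libraries, with 1 of them left out, called 897 (without WT replicate 2) to 3380 genes (without WT replicate 3) and 1 to 6 members; without KO replicate 1 the genes called were 1528, without KO replicate 2 1511 and without WT replicate 1 1499. The deviations of same-numbered libraries did not correlate above 0.1 in every pair (correlations -0.326, 0.0268 and -0.232 in WAT, 0.184, 0.0324 and 0.238 in culture), so the numbers were not taken as pairs. As a replicate block they gave 7258 genes in WAT, 3824 in culture and 6668 in the interaction, with 7, 6 and 8 members; those added in the interaction were Plin4 (-1.15, adjusted p = 0.0131) and Fitm2 (-0.83, adjusted p = 0.0330). Not every library correlated best with its own number: KO culture replicate 2 stood at 0.0324 with WT replicate 2 and at 0.0333 with WT replicate 3.

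Without division by length, Plin2 made up 56.5% of perilipin counts in cKO WAT, 33.3% in WT WAT, 47.6% in KO and 47.5% in WT cultures, and Plin1 26.2% in KO and 23.1% in WT cultures, since transcripts differ in length. On that scale Plin4 also made up 33.3% in WT WAT, so the lead of Plin2 there rests on the division by length. The length and GC removal and the single fit were not applied to the interaction. Depth limits Cidea in WT cultures (27 and 39 counts in 2 of the libraries).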
